A study of Mus musculus with 24 samples.

Results

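The transcripts of resting splenic B cells were set against those of 2 kinds of unstimulated macrophage, those elicited in the peritoneum by thioglycollate (EPM) and those derived from bone marrow (BMDM), all from C57BL/6 mice. The comparison was chosen by condition, and it used 6 of the 24 channels of the series, namely 2 of untreated B cells, 2 of untreated EPM and 2 of BMDM given the solvent DMSO for 1 h. The remaining channels held the same cells after Kdo2 lipid A (KLA), a specific agonist of the lipopolysaccharide receptor TLR4, or after 12 h of DMSO. B cells had been purified from spleen by removing cells that carry CD43 or CD11b on magnetic columns. EPM were washed out of the peritoneum 3 days after a thioglycollate injection and plated overnight, and BMDM were grown from marrow for 6 to 8 days in medium conditioned by L cells and kept overnight in 10 ng/ml M-CSF. No culture is named for the untreated B cells, whereas both macrophage types had been plated, and the control of the EPM was untreated where that of the BMDM had received solvent.

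Total RNA was extracted, 250 ng of it was amplified per sample, and Agilent mouse whole genome arrays with 2 colours were used, such that the Cy5 and the Cy3 channel of an array carried 2 biological replicates of one condition. Each cell type had a slide of its own, so that cell type and slide cannot be told apart in any value below, and the spread between replicates does not include differences between arrays. Of 41174 probes, 58.3% to 65.0% were well above background in each of the 6 channels, the median signal was 1.81 to 3.06 times the local background, and no spot was saturated. Replicates of a cell type correlated at 0.9986 to 0.9989 over the genes tested. The number of arrays limits the precision. Values are log2 intensities of the brightest probe of a gene, and since an offset of 50 was added to every intensity, levels near 6 are close to the floor and fold differences of dim genes are understated. Dimmer probes of a gene often differed less than its brightest one, and a probe that pointed the other way is named beside the gene.

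B cells recognise antigen through membrane immunoglobulin, which signals through the ITAM-bearing chains CD79A and CD79B to the kinases LYN, SYK and BTK, and they present the antigen on MHC class II molecules to T cells. Their identity is kept by PAX5, EBF1 and E2A, whereas macrophage identity is kept by high levels of PU.1 with C/EBP factors. Macrophages depend on the receptor for M-CSF, engulf particles through scavenger, Fc and complement receptors, and degrade them in a large lysosomal compartment. Both cell types carry TLR4 and can respond to lipid A.

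Of 17162 genes tested, 5479 were higher in B cells than in both macrophage types, which is 31.9% of the genes, and 5250 were lower than in both, which is 30.6% (limma, adjusted p under 0.05 in both contrasts). At 2-fold or more in both contrasts the counts were 2196 higher and 2075 lower, or 12.8% and 12.1% of the genes, at 4-fold they were 628 and 962, at 16-fold 111 and 273, and at 64-fold 36 and 92. The counts were nearly even over all genes called and at 2-fold, and from 4-fold on the genes lower in B cells outnumbered the higher ones. Probe choice and filter used all 12 conditions, most of them of macrophages, and their part in this was not tested. At 4-fold, 246 of the 962 lower genes were not well above background in B cells, and 76 of the 628 higher ones in no macrophage channel. Among genes well above background in all 3 early controls, 4642 were higher and 3866 lower with no fold minimum. Without normalization between arrays 4082 genes were higher and 7147 lower, so that the split moved to 36.4% higher among the genes called, against 51.1%, and the median over all genes moved from -0.01 to -0.14 against EPM and from -0.03 to -0.22 against BMDM. The single contrasts gave 13244 genes against EPM and 13143 against BMDM. B cell channels correlated with EPM channels at 0.805 to 0.806 and with BMDM channels at 0.822 to 0.824 over 17088 genes, and the macrophage types correlated with each other at 0.955 to 0.957.

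**Figure D1:**
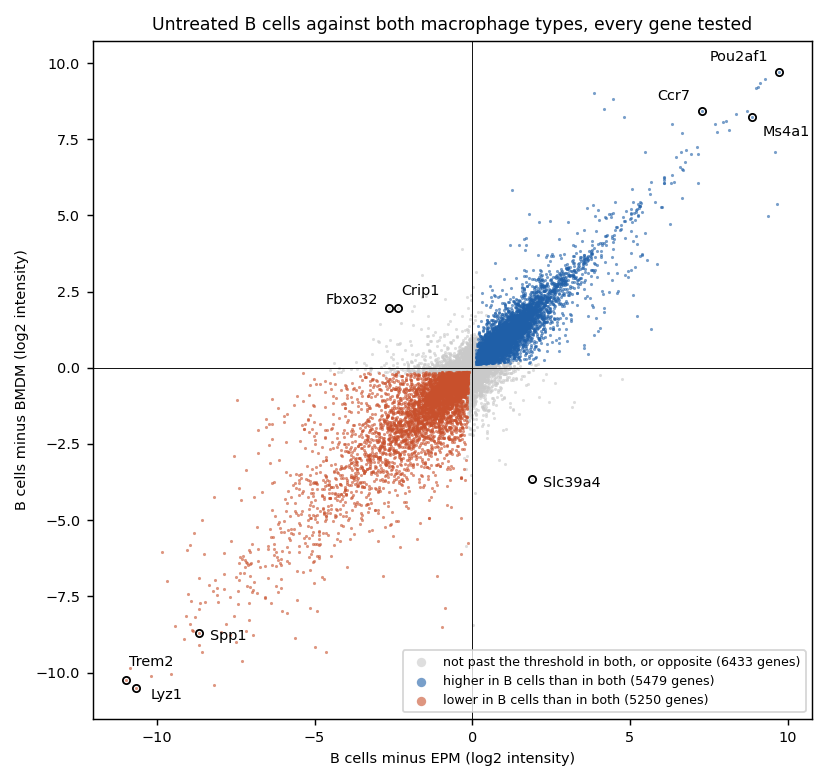
Each point is 1 of 17162 genes, with its difference between untreated B cells and EPM on the x axis and between B cells and BMDM on the y axis, both as log2 intensities (means of n = 2 channels), and colour marks genes past the threshold in both contrasts. Most points lie along the diagonal, from Trem2 and Lyz1 below -10 to Pou2af1 above 9.7, and the circled Fbxo32, Crip1 and Slc39a4 lie in the quadrants of opposite sign.

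The labels were checked on markers of each cell type. The 4 B cell markers were all higher in B cells. Cd79b (CD79B of the B cell receptor; NM_008339; mm8 chromosome 11, 106127556 to 106127615) had log2 intensities of 17.05 and 17.10 in B cells, 7.34 and 7.50 in EPM and 11.62 and 11.75 in BMDM, so that the groups were apart, with BMDM well above EPM. Ms4a1 (CD20, a surface protein of mature B cells) was at 15.13 ± 0.07 in B cells, 6.26 ± 0.05 in EPM and 6.91 ± 0.09 in BMDM (mean ± SD, n = 2). Pax5 (the factor that holds B lineage identity) was at 11.95 ± 0.24 in B cells, 5.88 ± 0.02 in EPM and 5.88 ± 0.01 in BMDM (mean ± SD, n = 2) and was not well above background in any macrophage channel, and Vpreb3 (a chaperone-like partner of immunoglobulin chains) was at 13.30 in B cells, 6.67 in EPM and 6.22 in BMDM. The summed intensity of the 4 markers, on the log2 scale, was 17.50 and 17.54 in B cells, 8.63 and 8.73 in EPM and 11.74 and 11.85 in BMDM, and the value in BMDM rested on Cd79b, since the other markers were below 7 there.

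All 10 macrophage markers were lower in B cells than in both macrophage types, and 4 of them, Itgam, Fcgr1, Mrc1 and Mertk, were not well above background in either B cell channel. Csf1r (the M-CSF receptor) was at 6.45 in B cells, 13.61 in EPM and 15.08 in BMDM, Adgre1 (F4/80) at 7.52 in B cells, 15.01 in EPM and 16.50 in BMDM and Cd68 (a lysosomal membrane protein) at 7.82 in B cells, 15.98 in EPM and 14.79 in BMDM. The summed level of the 10 markers was 10.27 and 10.29 in B cells against 18.29 to 18.62 in the 4 macrophage channels. Itgam encodes the CD11b used for the depletion, and its low level in B cells is therefore no finding. Spn, which encodes the CD43 used likewise, was at 10.86 in B cells, 8.89 in EPM and 10.16 in BMDM. In RNA of whole cultures, fewer cells of a type and less RNA per cell cannot be told apart.

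Of the 12 genes with the largest difference on the B cell side, 11 are described here, namely Pou2af1, Fcmr, Ly6d, Iglv1, Dtx1, Ms4a1, Cxcr5, Fcrla, Tnfrsf13c, Gimap1 and Ccr7, taken by the smaller of the differences from EPM and BMDM. In each of them both B cell channels lay more than 7 log2 units above all 4 macrophage channels. Pou2af1 (OCA-B, the coactivator of the octamer factors; NM_011136; mm8 chromosome 9, 50992233 to 50992292) had log2 intensities of 16.004 and 16.01 in B cells, 6.27 and 6.27 in EPM and 6.27 and 6.29 in BMDM. The difference was 9.74 against EPM and 9.72 against BMDM on the log2 scale (standard error 0.09; adjusted p = 2.81e-23 and 3.09e-23), or 854-fold against EPM and 846-fold against BMDM, and EPM differed from BMDM by -0.01 (limma, adjusted p = 0.913). Fcmr (the Fc receptor for IgM, named Faim3 in the files; NM_026976; mm8 chromosome 1, 132708225 to 132708284) had 15.64 and 15.58 in B cells, 6.53 and 6.45 in EPM and 6.28 and 6.25 in BMDM, a difference of 9.12 against EPM and 9.34 against BMDM (standard error 0.07; adjusted p = 2.34e-24 and 9.14e-25). Ly6d (a lymphoid surface protein of the Ly6 family) had 15.53 and 15.68 in B cells, 6.63 and 6.61 in EPM and 6.32 and 6.51 in BMDM, and its differences were 8.98 and 9.19. Where a pair of differences is given here and below, the first is from EPM and the second from BMDM.

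Cxcr5 (the receptor for CXCL13 that brings B cells into follicles; NM_007551; mm8 chromosome 9, 44262983 to 44263042) had 14.11 and 14.06 in B cells, 6.13 and 5.95 in EPM and 5.92 and 6.03 in BMDM. It was not well above background in any macrophage channel, so that its fold is a bound, taken per channel against the higher of its own signal and the lowest signal well above background on that channel, and it was at least 261-fold against EPM and at least 258-fold against BMDM (measured differences 8.04 and 8.11 on the log2 scale; adjusted p = 5.32e-23 and 5.3e-23). Ccr7 (the receptor that draws lymphocytes to T cell zones) had 14.43 and 14.46 in B cells, 7.25 and 7.10 in EPM and 6.01 and 6.01 in BMDM, and here EPM lay above BMDM, by 1.16 (adjusted p = 7.9e-08). It was not well above background in BMDM and was higher in B cells by 155-fold against EPM and at least 331-fold against BMDM. Tnfrsf13c (the receptor for the survival factor BAFF) was at 13.84 ± 0.05 in B cells, 6.08 ± 0.11 in EPM and 6.11 ± 0.01 in BMDM (mean ± SD, n = 2). Both homing receptors and the BAFF receptor were thus below 7.3 in every macrophage channel.

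Ms4a1 had 15.08 and 15.18 in B cells, 6.23 and 6.29 in EPM and 6.97 and 6.85 in BMDM and was higher by 468-fold against EPM and 298-fold against BMDM. Iglv1 (a variable segment of the lambda light chain) was at 15.41 in B cells, 6.68 in EPM and 6.99 in BMDM, and all 8 of its probes were higher in B cells, from 5.16 to 8.73 against EPM. Fcrla (an intracellular relative of Fc receptors) and Dtx1 (Deltex, of the Notch pathway) were not well above background in any macrophage channel. Fcrla was higher by at least 246-fold against EPM and at least 244-fold against BMDM and Dtx1 by at least 318-fold against EPM and at least 316-fold against BMDM. Gimap1 (a GTPase of lymphocytes), not well above background in BMDM, was higher by 205-fold against EPM and at least 227-fold against BMDM. In these 3 genes the B cell channels ran from 13.88 to 14.51, and no macrophage channel exceeded 6.23.

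The 12 genes with the largest difference on the macrophage side were Lyz1, Trem2, Lpl, Gpnmb, Cd5l, Lyz2, Spp1, Sirpa, Clec4d, Cd300c2, C1qc and Ccl6. Both B cell channels lay below all 4 macrophage channels in each of them, by more than 8 log2 units between group means. Trem2 (a lipid-sensing receptor that signals through TYROBP; NM_031254; mm8 chromosome 17, 47817764 to 47817823) had 5.86 and 6.0 in B cells, 16.98 and 16.87 in EPM and 16.17 and 16.19 in BMDM and was lower in B cells by at least 1821-fold against EPM and at least 1090-fold against BMDM, since no B cell channel was well above background (measured differences -10.99 and -10.25, standard error 0.07; adjusted p = 4.25e-25 and 7.51e-25). Lpl (lipoprotein lipase; NM_008509; mm8 chromosome 8, 71835357 to 71835416) had 6.15 and 6.27 in B cells, 16.53 and 16.28 in EPM and 16.50 and 16.13 in BMDM and was lower by at least 1168-fold against EPM and at least 1099-fold against BMDM. Spp1 (osteopontin, a secreted matrix protein; NM_009263; mm8 chromosome 5, 104681071 to 104681130) had 8.58 and 8.12 in B cells, 16.92 and 17.12 in EPM and 17.08 and 17.04 in BMDM, a difference of -8.67 against EPM and -8.71 against BMDM (standard error 0.15; adjusted p = 1.36e-19 and 1.53e-19). Between EPM and BMDM the difference in Spp1 was -0.04 (adjusted p = 0.842).

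Lyz2 (lysozyme M, named Lyzs in the files; NM_017372; mm8 chromosome 10, 116681504 to 116681563) had 8.29 and 8.33 in B cells, 17.55 and 17.37 in EPM and 17.39 and 17.06 in BMDM, and Lyz1 (lysozyme P) had 6.52 and 6.53 in B cells, 17.38 and 16.98 in EPM and 17.21 and 16.84 in BMDM. The lysozymes are near-identical in sequence, and the signals of their transcripts cannot be told apart with certainty. C1qc (a chain of complement C1q; NM_007574; mm8 chromosome 4, 136161927 to 136161986) had 6.30 and 6.35 in B cells, 14.83 and 14.95 in EPM and 15.60 and 15.69 in BMDM, with BMDM above EPM. Cd5l (a secreted scavenger protein of macrophages) was at 6.43 in B cells, 15.99 in EPM and 16.49 in BMDM, and Clec4d (a C-type lectin receptor), not well above background in B cells, was lower by at least 462-fold against EPM and at least 394-fold against BMDM. Gpnmb (a transmembrane glycoprotein of phagocytes) was lower by at least 1838-fold against EPM and at least 904-fold against BMDM, whereas its other probe gave differences of -4.59 and -3.27. Sirpa (the receptor for CD47) differed by -8.65 and -9.08, and the smallest differences among its 3 probes were -4.15 and -5.30. Cd300c2 (a CD300 family receptor, named Cd300d in the files) differed by -8.90 and -8.59. Ccl6 (a chemokine) was not well above background in B cells and was lower by at least 645-fold against EPM and at least 332-fold against BMDM.

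**Figure D2:**
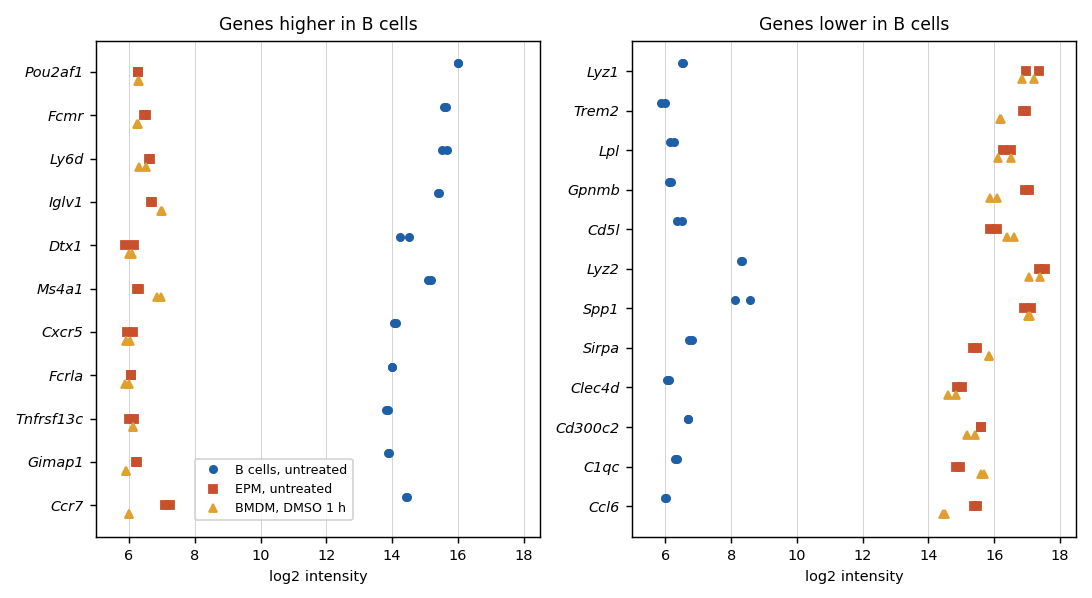
Log2 intensity of the 11 genes named on the B cell side and the 12 on the macrophage side, 1 symbol per channel (n = 2 channels per cell type; circles B cells, squares EPM, triangles BMDM). B cells stand at 13.8 or more in the first panel and at 8.6 or less in the second. In both panels the EPM and BMDM channels lie nearer to each other than to B cells, with EPM above BMDM by 1.16 in Ccr7 and 1.02 in Gpnmb.

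Promoters are shown for 6 genes whose levels separate the cell types. They are the 250 bases before the start of the gene as RefSeq annotates it on GRCm38.p6, written 5′ to 3′ on the strand of the gene, with the letters that match a searched motif in capitals. Vpreb3 (chr10:75948050-75948299, plus strand) is an example from the B cell markers, chosen like the next 3 after the matches were seen. C1qc (chr4:136892915-136893164, minus strand), Cd68 (chr11:69666171-69666420, minus strand) and the upstream one of the Spp1 starts (chr5:104434861-104435110, plus strand) are examples from the macrophage genes. Lyz1 (chr10:117292869-117293118, minus strand) and Lyz2 (chr10:117282273-117282522, minus strand) are shown for their likeness.
Vpreb3: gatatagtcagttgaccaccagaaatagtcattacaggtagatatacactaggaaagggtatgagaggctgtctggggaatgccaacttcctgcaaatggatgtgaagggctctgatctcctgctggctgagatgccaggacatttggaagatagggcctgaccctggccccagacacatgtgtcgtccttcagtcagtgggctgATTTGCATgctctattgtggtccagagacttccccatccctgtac
C1qc: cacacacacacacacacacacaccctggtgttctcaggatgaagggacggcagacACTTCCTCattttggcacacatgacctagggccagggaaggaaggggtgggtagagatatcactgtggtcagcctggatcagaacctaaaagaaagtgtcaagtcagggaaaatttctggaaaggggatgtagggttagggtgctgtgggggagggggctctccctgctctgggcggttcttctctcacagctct
Cd68: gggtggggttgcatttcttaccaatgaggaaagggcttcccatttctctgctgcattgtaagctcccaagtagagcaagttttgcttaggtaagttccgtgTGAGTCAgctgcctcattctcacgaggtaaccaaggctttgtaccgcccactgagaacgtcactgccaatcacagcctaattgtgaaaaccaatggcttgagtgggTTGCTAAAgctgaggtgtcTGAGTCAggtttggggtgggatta
Spp1: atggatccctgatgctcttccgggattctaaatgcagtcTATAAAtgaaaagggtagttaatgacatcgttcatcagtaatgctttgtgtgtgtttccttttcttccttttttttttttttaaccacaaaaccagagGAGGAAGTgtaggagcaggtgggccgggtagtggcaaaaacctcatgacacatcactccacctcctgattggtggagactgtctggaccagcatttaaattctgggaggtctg
Lyz1: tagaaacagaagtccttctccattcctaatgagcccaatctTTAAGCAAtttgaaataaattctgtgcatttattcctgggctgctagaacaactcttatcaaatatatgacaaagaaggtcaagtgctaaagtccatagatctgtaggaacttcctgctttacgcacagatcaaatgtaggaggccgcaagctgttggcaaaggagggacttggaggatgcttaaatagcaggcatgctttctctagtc
Lyz2: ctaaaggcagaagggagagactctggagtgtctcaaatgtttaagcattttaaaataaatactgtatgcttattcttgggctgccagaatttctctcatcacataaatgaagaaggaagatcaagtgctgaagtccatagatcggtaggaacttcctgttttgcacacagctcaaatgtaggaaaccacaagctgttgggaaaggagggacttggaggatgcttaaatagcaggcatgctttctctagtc
The capitals in Vpreb3 are the octamer ATTTGCAT, which Oct1 and Oct2 bind and which starts 45 bases before the gene. Those in C1qc are ACTTCCTC, the reverse complement of the PU.1 core GAGGAAGT, 195 bases before the start. In Cd68 they are TGAGTCA, the reverse complement of the AP-1 site TGACTCA, at 149 and at 24 bases and a C/EBP match, TTGCTAAA, at 43 bases. In Spp1 they are GAGGAAGT at 113 bases and TATAAA at 211 bases. The window before the other Spp1 start, not printed, held the octamer as ATGCAAAT at 210 bases and a C/EBP match, TTGCAGAA, at 156 bases. Lyz1 had a C/EBP match, TTAAGCAA, at 209 bases, and Lyz2 had no match. Set side by side without gaps, Lyz1 and Lyz2 shared 92 of the 100 bases nearest the start, and 152 of all 250 (60.8%). Of the other genes described by size that had a promoter in the table, Trem2, Gpnmb, Clec4d, Cd300c2, Ccl6, Fcmr, Dtx1, Fcrla, Tnfrsf13c and Gimap1 had no match, Cd5l had an EBF match, and Pou2af1, higher in B cells, had a C/EBP match. A match describes letters in this window, and binding was not measured.

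The same motifs were counted in the promoters of the genes that differed by 4-fold or more from both macrophage types. Of the genes tested, 12886 had a promoter in the RefSeq table, with 16153 promoters, among them 574 promoters of genes higher in B cells and 957 of genes lower in B cells. Both strands were read, and no motif contains another. The AP-1 site TGACTCA was in 6.9% of the promoters of genes lower in B cells, in 2.96% of those of genes higher in B cells and in 3.72% of the promoters of all genes tested. The PU.1 core GAGGAAGT was in 3.55%, 2.26% and 2.33%, and the C/EBP motif TTGCNNAA in 9.82%, 6.62% and 8.22%, in the same order. The octamer ATTTGCAT was in 1.15% of the promoters lower in B cells (11 of 957), 1.92% of those higher (11 of 574) and 1.37% of all. Its shares thus rest on few promoters, and differences between shares were not tested for any motif. The EBF motif CCCNNGGG was in 18.1%, 19% and 15%, above the share of all genes in both groups. The E-box TCACGTGA of the MiT/TFE family, in 1.46%, 1.05% and 1.28%, and the TATA box TATAAA, in 8.25%, 8.36% and 8.88%, were near their shares in all genes. Over all 32851 promoters of the table the shares were 4.46% for AP-1, 2.44% for PU.1, 9.56% for C/EBP, 1.6% for the octamer, 11.8% for EBF, 0.785% for the E-box and 12.4% for the TATA box.

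Genes of B cell receptor signalling were higher in B cells in 20 of 28 cases and lower in 1 (31.9% and 30.6% over all genes), with median differences of 2.03 against EPM and 1.55 against BMDM, beside -0.01 against EPM and -0.03 against BMDM over all genes. Ighm (the mu heavy chain) had 17.29 and 17.58 in B cells, 7.76 and 7.89 in EPM and 10.34 and 10.37 in BMDM, and as with Cd79b, BMDM lay above EPM. Blk (a SRC family kinase of B cells) was at 11.17 in B cells, 6.0 in EPM and 6.05 in BMDM and Cr2 (CD21, the complement receptor of B cells) at 9.52 in B cells, 5.90 in EPM and 5.92 in BMDM, neither of them well above background in any macrophage channel. The adaptors and kinases that macrophages also use differed less. Syk was at 13.80 in B cells, 12.68 in EPM and 13.01 in BMDM and Btk at 12.72 in B cells, 10.26 in EPM and 10.77 in BMDM. Blnk, the adaptor next to SYK, was at 16.07 in B cells, 15.97 in EPM and 14.50 in BMDM and missed the threshold against EPM (adjusted p = 0.253). Lyn, Ptpn6, Vav1, Cd72, Cd81 and Fcgr2b were also outside the counts, and in all of them except Fcgr2b the mean of BMDM lay above that of B cells and the mean of EPM below it. The gene that was lower was Pik3ap1 (the adaptor BCAP), at 9.30 in B cells, 10.47 in EPM and 12.80 in BMDM.

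Of 8 adaptors with ITAMs, the tyrosine motifs through which antigen and Fc receptors signal, Cd79a and Cd79b were higher in B cells, and Tyrobp, Fcer1g and Cd3e were lower. Tyrobp (DAP12) had 9.23 and 9.18 in B cells, 16.47 and 16.42 in EPM and 15.90 and 15.94 in BMDM, a difference of -7.24 against EPM and -6.72 against BMDM. Fcer1g (the common Fc receptor gamma chain) had 7.69 and 7.73 in B cells, 15.32 and 15.18 in EPM and 15.89 and 15.82 in BMDM, a difference of -7.54 against EPM and -8.14 against BMDM. Cd79a had 10.68 and 10.58 in B cells, 6.34 and 6.41 in EPM and 6.63 and 6.59 in BMDM, a difference of 4.25 against EPM and 4.02 against BMDM. Of the adaptors measured, the CD79 chains were thus on the side of the B cells, and Tyrobp and Fcer1g on that of the macrophages. As a list, 2 of the 8 were higher, 3 lower and 3 not called, near the 31.9% higher and 30.6% lower over all genes. The medians over the 8 genes were -0.06 against EPM and -0.09 against BMDM.

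Of 19 transcription factors of the B lineage 16 were higher in B cells and none was lower (31.9% and 30.6% over all genes), with median differences of 3.76 against EPM and 3.24 against BMDM. Pax5 and Ebf1 were not well above background in any macrophage channel, and Pax5 was higher by at least 62.7-fold against EPM and at least 58.8-fold against BMDM, Ebf1 by at least 20.5-fold against EPM and at least 19.2-fold against BMDM. Spib (an ETS factor related to PU.1) had 13.83 and 13.72 in B cells, 6.90 and 7.10 in EPM and 6.63 and 6.60 in BMDM, and Bach2 (a repressor of plasma cell fate) was at 14.30 in B cells, 7.97 in EPM and 6.29 in BMDM. Ets1 was higher by 6.40 and 6.10 on the log2 scale, Irf4 by 5.60 and 5.88, Foxo1 by 4.24 and 4.91, and Tcf3, which encodes E2A, by 3.0 and 3.24. Pou2f2 (Oct2, the partner of the coactivator encoded by Pou2af1) was at 10.40 in B cells, 6.86 in EPM and 9.66 in BMDM, with BMDM nearer to B cells than EPM. The call of Pou2f2 was lost with array means taken as samples, a setting that pools the early and the 12 h controls of each cell type. Klf2, Bcl6 and Id3 were not past the threshold in the same direction in both contrasts. Klf2 (a factor of quiescence and migration) was at 16.02 in B cells, 15.81 in EPM and 15.97 in BMDM on its brightest probe, whereas its other probe gave differences of 4.92 and 4.38.

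Of 23 surface, homing and survival receptors of B cells 21 were higher in B cells and none was lower (31.9% and 30.6% over all genes), with median differences of 5.25 against EPM and 5.61 against BMDM. Fcer2a (CD23, the low-affinity receptor for IgE) had 12.03 and 12.14 in B cells, 6.03 and 5.98 in EPM and 5.99 and 6.07 in BMDM, and it was not well above background in any macrophage channel. Of the receptors that guide lymphocytes within and out of lymphoid organs, Ccr6 was higher by 6.07 and 6.18, S1pr1 by 2.81 and 3.15, and Gpr183 by 2.10 and 2.85. Icosl, which costimulates T cells, was higher by 5.55 and 3.54, and Cd40, through which B cells receive T cell help, by 3.37 and 3.42. The exceptions were Tnfrsf13b (TACI), at 11.03 in B cells, 10.10 in EPM and 11.06 in BMDM, and Cd55, whose probe had no value in BMDM and could be set only against EPM, where B cells were at 11.39 and EPM at 7.02.

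MHC class II genes were higher in B cells in 11 of 12 cases (31.9% over all genes), with median differences of 4.33 against EPM and 5.90 against BMDM. H2-Aa (a class II alpha chain) had 14.94 and 15.02 in B cells, 10.49 and 10.53 in EPM and 6.15 and 6.18 in BMDM, so that EPM lay between B cells and BMDM. H2-Ab1 was at 17.09 in B cells, 13.24 in EPM and 8.08 in BMDM, H2-Eb1 at 15.59 in B cells, 10.78 in EPM and 7.36 in BMDM and Cd74 (the invariant chain) at 16.72 in B cells, 12.53 in EPM and 8.22 in BMDM. The same order, B cells above EPM above BMDM, held for all 4 of these genes, with differences between EPM and BMDM of 3.42 to 5.16. Ciita (the activator of class II transcription) had 12.24 and 12.44 in B cells, 6.66 and 6.70 in EPM and 6.26 and 6.23 in BMDM. Of the chains of DO, a modulator of peptide loading, H2-Oa was at 13.60 in B cells, 6.45 in EPM and 6.57 in BMDM, and H2-Ob was at 11.70 in B cells, 6.07 in EPM and 6.0 in BMDM. Of the costimulatory genes in the list, Cd86 was higher in B cells, by 2.73 and 2.18, and Cd80 was lower, at 5.97 in B cells, 7.16 in EPM and 7.57 in BMDM and not well above background in B cells.

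Genes of other B cell stages and subsets gave mixed counts, to be read beside 31.9% higher and 30.6% lower over all genes. The B cells had been selected by removal of cells with CD43 or CD11b, and what this did to the levels of these genes was not tested. Of 9 genes of B-1 and marginal zone cells 3 were higher and 4 lower (medians 0.19 against EPM and -0.21 against BMDM). Of 8 genes of early progenitors only Rag1 was higher, at 7.93 in B cells, 5.87 in EPM and 5.84 in BMDM, and Il7r (the IL-7 receptor) was lower, at 6.67 in B cells, 13.33 in EPM and 10.75 in BMDM, as were Cd34 and Kit (medians -0.15 against EPM and 0.03 against BMDM). Of 6 plasma cell genes Jchain was higher by at least 19-fold against EPM and at least 19.8-fold against BMDM, Mzb1 was higher by 81.2-fold against EPM and 79.9-fold against BMDM, and Xbp1 and Slamf7 were lower (medians -0.71 against EPM and 0.61 against BMDM). Cd9 and Cd36, which stand in the list of marginal zone genes, are also expressed by macrophages and were lower in B cells.

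Macrophage transcription factors were lower in B cells in 13 of 19 cases and higher in none (30.6% and 31.9% over all genes), with median differences of -2.63 against EPM and -2.69 against BMDM. Cebpa (C/EBPα) had 6.46 and 6.47 in B cells, 12.25 and 12.42 in EPM and 10.70 and 11.07 in BMDM, a difference of -5.87 against EPM and -4.42 against BMDM, and Cebpb (C/EBPβ) was at 11.32 in B cells, 15.02 in EPM and 14.32 in BMDM. Spi1 (PU.1), which B cells also need, was at 7.42 ± 0.16 in B cells, 8.64 ± 0.31 in EPM and 9.66 ± 0.33 in BMDM (mean ± SD, n = 2), a smaller difference of -1.22 against EPM and -2.24 against BMDM (adjusted p = 6.84e-05 and 3.14e-08). Of the nuclear receptors, Nr1h3 (LXRα) differed by -5.52 and -4.82, and Pparg by -5.51 and -3.77. Maf, Klf4, Runx1, Tfeb and Bhlhe40 were not past the threshold in both contrasts, and Egr2 was lower than in EPM and higher than in BMDM, at 11.31 in B cells, 12.91 in EPM and 8.99 in BMDM.

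All 27 growth factor and surface receptors of macrophages were lower in B cells than in both macrophage types (30.6% over all genes), with median differences of -6.07 against EPM and -5.41 against BMDM. Csf1r had 6.46 and 6.44 in B cells, 13.67 and 13.55 in EPM and 15.06 and 15.09 in BMDM, and Cd14 (the coreceptor that hands lipopolysaccharide to TLR4) had 6.66 and 6.66 in B cells, 12.82 and 12.83 in EPM and 13.89 and 14.15 in BMDM. Marco and Itgax set the macrophage types apart. Marco (a scavenger receptor) was at 7.42 in B cells, 12.07 in EPM and 16.73 in BMDM, and Itgax (CD11c) was at 6.36 in B cells, 13.14 in EPM and 8.41 in BMDM. Mertk (a receptor for dying cells) was at 6.02 in B cells, 10.54 in EPM and 10.31 in BMDM and Clec7a (dectin-1) at 6.07 in B cells, 14.88 in EPM and 11.48 in BMDM, neither of them well above background in B cells.

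Of 14 Fc receptor and complement genes 13 were lower in B cells (30.6% over all genes), with medians of -6.05 against EPM and -6.14 against BMDM. Fcgr1 had 6.07 and 6.02 in B cells, 14.02 and 13.99 in EPM and 14.72 and 14.73 in BMDM, and C3 (the central complement component) was at 7.0 in B cells, 14.11 in EPM and 13.48 in BMDM. Fcgr2b, the inhibitory Fc receptor and the one Fc gamma receptor that B cells are known for, had 11.74 and 11.78 in B cells, 12.48 and 12.46 in EPM and 10.27 and 10.20 in BMDM and was lower than in EPM and higher than in BMDM, a pattern that was not called with array means taken as samples. The activating receptor Fcgr3, not well above background in B cells, was lower by at least 389-fold against EPM and at least 207-fold against BMDM, and Fcgr4 differed by -5.06 and -5.40.

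Of 30 lysosomal genes 29 were lower in B cells and none was higher (medians -3.54 against EPM and -2.82 against BMDM). This count and those of the next lists stand beside 30.6% lower and 31.9% higher over all genes. Ctsd (cathepsin D) differed by -6.73 and -6.52, and Ctsl (cathepsin L) by -6.18 and -6.22, whereas Ctsh (cathepsin H) differed by -0.92 and -0.40, and Ctss (cathepsin S) by -1.56 and -1.82. Ctss trims the invariant chain in antigen-presenting cells, and it was at 15.29 in B cells, 16.86 in EPM and 17.12 in BMDM. Of 13 genes of lipid uptake, storage and efflux 11 were lower (medians -4.48 against EPM and -3.46 against BMDM), among them Fabp4 at 6.09 in B cells, 15.93 in EPM and 12.13 in BMDM and Plin2 at 8.11 in B cells, 17.06 in EPM and 16.52 in BMDM. Abca1, which exports cholesterol, was the gene that was higher in B cells, at 12.45 in B cells, 11.31 in EPM and 12.01 in BMDM, and without normalization between arrays none of the 13 was higher. Of 16 genes of the NADPH oxidase, iron handling and oxidant defence 12 were lower and none was higher (medians -1.07 against EPM and -1.31 against BMDM), with Slc11a1 (the phagosomal metal transporter) at 6.24 in B cells, 15.30 in EPM and 14.40 in BMDM and Cybb (the oxidase subunit) at 11.59 in B cells, 12.88 in EPM and 12.35 in BMDM. Of 22 adhesion, cytoskeleton and matrix genes 16 were lower and 3, Itga4, Coro1a and Rhoh, were higher (medians -3.45 against EPM and -2.28 against BMDM; probes of Itga4 disagreed in sign), with Lgals3 (galectin-3) at 9.60 in B cells, 16.76 in EPM and 15.99 in BMDM and Rhoh at 12.97 in B cells, 9.22 in EPM and 9.39 in BMDM.

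Of 24 Toll-like receptor and adaptor genes 13 were lower in B cells and 4 were higher, with median differences of -0.44 against EPM and -0.86 against BMDM. Among all genes tested 30.6% were lower and 31.9% higher. Tlr4 had 7.16 and 7.21 in B cells, 9.87 and 9.82 in EPM and 9.95 and 9.79 in BMDM, a difference of -2.66 against EPM and -2.68 against BMDM (standard error 0.07; adjusted p = 2.07e-17 and 2.12e-17), and its other, dimmer probe gave 0.11 and 0.20. Ly96 (MD-2, which binds lipid A within the TLR4 complex) had 9.46 and 9.39 in B cells, 11.25 and 11.09 in EPM and 11.23 and 11.003 in BMDM, a difference of -1.74 against EPM and -1.69 against BMDM, and its call was lost with array means taken as samples. Cd14 differed by -6.17 against EPM and -7.36 against BMDM. The B cell channels of Tlr4 and Ly96 were well above background. Among other receptors that were lower, Tlr2 differed by -1.59 and -3.56, Tlr6 by -2.41 and -2.0, and Tlr7 by -2.36 and -3.60. Myd88, Ticam1, Tlr1, Tlr9, Cd180, Irak2 and Irak3 were not past the threshold in the same direction in both contrasts, with Myd88 at 11.62 in B cells, 11.61 in EPM and 12.73 in BMDM and Tlr9 at 10.73 in B cells, 11.17 in EPM and 10.94 in BMDM. Irak1 and Traf6, which carry the signal on from MYD88, were higher, Irak1 by 0.80 and 1.14, and Traf6 by 0.75 and 1.06. Tirap, which links receptors to MYD88, was higher by 0.53 and 0.58, and Ly86 (MD-1) by 0.48 and 1.37.

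Of 14 genes of the NF-κB system 12 were higher in B cells and 1, Ikbkg, was lower (31.9% and 30.6% over all genes), with median differences of 1.84 against EPM and 1.34 against BMDM. Nfkb1 (p105, the precursor of p50) had 12.60 and 12.41 in B cells, 9.84 and 9.69 in EPM and 10.51 and 10.33 in BMDM, and Relb had 13.07 and 13.05 in B cells, 10.68 and 10.65 in EPM and 11.41 and 11.46 in BMDM. Rel (c-Rel) was at 7.72 ± 0.12 in B cells, 6.29 ± 0.06 in EPM and 6.34 ± 0.05 in BMDM (mean ± SD, n = 2). Nfkbie (IκBε) was higher by 3.33 and 2.79, Nfkbia (IκBα) by 2.28 and 1.34, and Bcl3 by 2.41 and 1.69 on the log2 scale. Nfkbiz lay between the macrophage types, at 10.11 in B cells, 8.01 in EPM and 11.08 in BMDM, and Ikbkg, with 4 probes that disagreed in sign, differed by -0.19 and -0.52.

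**Figure D3:**
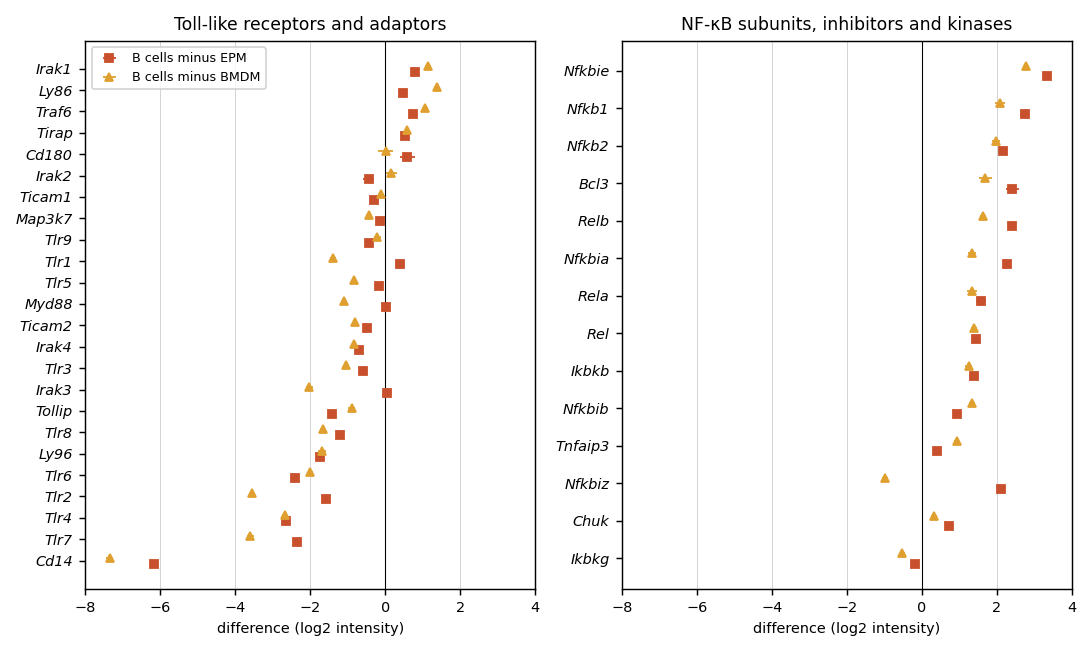
Difference in log2 intensity of untreated B cells from EPM (squares) and from BMDM (triangles) for 24 Toll-like receptor and adaptor genes and 14 genes of the NF-κB system, with bars of 1 standard error of the limma fit (n = 2 channels per group). Cd14, Tlr7, Tlr4 and Tlr2 lie at the lower end of the first panel, and all genes of the second panel except Chuk, Ikbkg, Nfkbiz and Tnfaip3 lie between 0.95 and 3.33 in both contrasts.

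The study's lists of KLA-responsive genes were compared at their unstimulated level. They were chosen by induction in macrophages of this series and are not independent evidence of a direction. Of the 130 immediate/early (I/E) genes 32 were higher in unstimulated B cells and 63 were lower, or with no normalization between arrays 28 and 71, where 31.9% and 30.6% of all genes were called. The medians were -0.32 against EPM and -0.49 against BMDM, and 35 of the genes were not well above background in either B cell channel. Among the 63 lower ones, Ccl2 (a chemokine) had 6.13 and 6.18 in B cells, 13.91 and 13.76 in EPM and 15.05 and 14.77 in BMDM and was lower by at least 205-fold against EPM and at least 432-fold against BMDM, and Tnf (tumour necrosis factor) had 8.40 and 8.29 in B cells, 9.60 and 9.62 in EPM and 12.27 and 12.32 in BMDM. The call of Tnf was lost with array means taken as samples. Ccl3 differed by -0.81 and -3.33, and Il1b, which encodes interleukin-1β, by -0.68 and -1.66. Among the 32 higher ones, Nr4a1 (the orphan receptor NUR77, induced by antigen receptor signalling) had 15.24 and 15.12 in B cells, 11.31 and 11.16 in EPM and 12.22 and 12.18 in BMDM, and Dusp2 (a MAP kinase phosphatase) had 15.44 and 15.25 in B cells, 11.86 and 11.73 in EPM and 11.70 and 11.59 in BMDM. Egr1 was higher by 1.12 and 1.15, Btg2 by 3.51 and 3.45, and Cd83 by 2.63 and 2.26.

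Of 119 late genes of the study (1 more was not analysed here) 21 were higher and 55 were lower, beside 31.9% and 30.6% of all genes, with medians of -0.13 against EPM and -0.65 against BMDM. Without normalization between arrays 14 were higher and 64 lower, 1 of them with its direction reversed. Irf7 (a driver of the interferon response) was at 7.99 in B cells, 11.49 in EPM and 12.81 in BMDM, Ifitm3 at 9.92 in B cells, 14.01 in EPM and 14.42 in BMDM and Oasl2 at 6.95 in B cells, 11.86 in EPM and 13.14 in BMDM, each lower in B cells. Of other interferon-responsive genes, Tap2 was higher by 1.44 and 1.36, and Gbp9 by 2.12 and 0.93, but Gbp9 had another probe with differences of 0.55 and -0.09. Ifng (interferon-γ) was higher too, at 8.77 in B cells, 5.97 in EPM and 5.97 in BMDM, and not well above background in macrophages. Nos2, Cxcl9 and Cxcl11, which macrophages are known to induce, were not well above background in any of the 6 channels.

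Ribosomal protein genes were higher in B cells in 19 of 21 cases and lower in none, with medians of 0.98 against EPM and 0.72 against BMDM. The differences were small, at least 2-fold in both contrasts in 5 genes, with Rps19 at 16.64 in B cells, 14.05 in EPM and 14.99 in BMDM. Of 17 glycolysis genes 13 were lower and 3 higher (medians -1.28 against EPM and -1.29 against BMDM), with Hk3 at 6.51 in B cells, 14.73 in EPM and 13.83 in BMDM and Ldha at 14.54 in B cells, 15.82 in EPM and 15.49 in BMDM, and of 23 genes of oxidative phosphorylation 12 were lower and 4 higher (medians -0.28 against EPM and -0.27 against BMDM), most by less than 2-fold. These counts stand beside 31.9% higher and 30.6% lower over all genes. The small shifts depended on the scaling. Without normalization between arrays 17 of the 23 genes of oxidative phosphorylation were lower and none was higher, while 17 of 21 ribosomal genes were higher. In the same setting 18 of 28 genes of B cell receptor signalling and 10 of 14 of the NF-κB system were higher, 1 of the 17 glycolysis genes was higher and 14 were lower, 18 of 19 macrophage transcription factors were lower, and of the 24 Toll-like receptor genes 3 were higher and 16 lower.

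Cell cycle genes were lower in B cells in 15 of 29 cases and higher in 5, or 17 and 2 without normalization between arrays, with medians of -0.48 against EPM and -1.36 against BMDM. The shares over all genes were 30.6% lower and 31.9% higher. Cdk1 had 6.89 and 6.80 in B cells, 9.57 and 9.48 in EPM and 11.30 and 11.21 in BMDM, so that BMDM were the highest and B cells the lowest. Ccnd1 (cyclin D1) was at 6.41 in B cells, 9.23 in EPM and 13.23 in BMDM, whereas Ccnd2 (cyclin D2) was higher in B cells by 3.86 and 1.07, and Ccnd3 (cyclin D3) by 2.29 and 0.27. Cdkn1b (p27, an inhibitor of cyclin-dependent kinases) was higher by 2.24 and 2.11, and Cdkn1a (p21) differed by -2.56 and -4.72. Of the MCM genes of DNA replication, Mcm2 to Mcm6 had a mean in B cells between those of the macrophage types, with Mcm2 at 10.83 in B cells, 9.73 in EPM and 11.23 in BMDM, and Mcm7 was higher in B cells than in both.

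**Figure D4:**
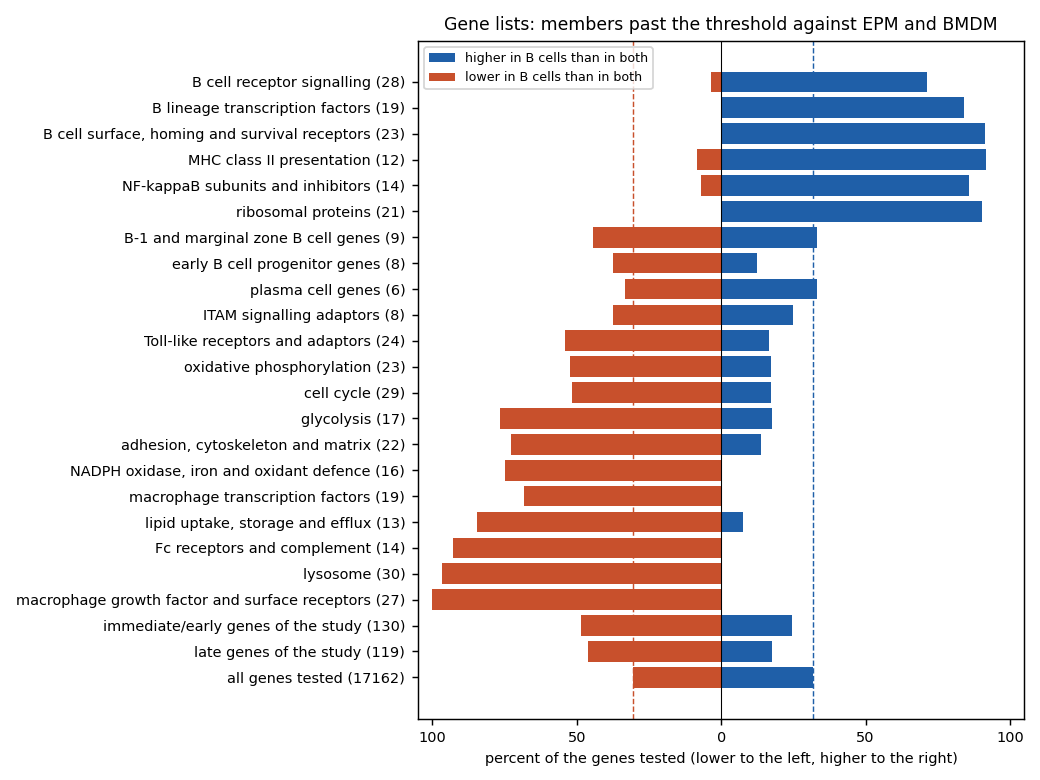
Percent of the tested members of each list that were higher (right) or lower (left) in B cells than in both macrophage types, with the number of members tested in brackets and dashed lines at the shares over all 17162 genes. The B cell receptor, transcription factor and surface lists, MHC class II, NF-κB and ribosomal proteins reach well past the right dashed line, and all 27 macrophage receptors lie on the left.

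Markers of other cell types were read in the same channels. Over all genes tested, to be set beside the counts here, 31.9% were higher and 30.6% lower. Of 7 erythroid markers on the arrays 4 passed the filter and were tested, and all 4 were higher in B cells (medians 3.31 against EPM and 3.51 against BMDM). The filter can admit a gene through B cells alone, so that this count is not independent of it, and 1 of the 4 was not well above background in EPM and 1 in BMDM. Hbb-bt (an adult beta globin chain with a close paralog that the probe may also read) had 12.83 and 13.03 in B cells, 6.23 and 6.17 in EPM and 6.19 and 6.18 in BMDM, and Hba-a1 had 11.29 and 11.44 in B cells, 7.23 and 7.23 in EPM and 7.31 and 7.20 in BMDM. The summed level of the 4 markers was 13.37 and 13.56 in B cells against 8.52 to 8.65 in macrophages. Of 8 fibroblast and mesothelial markers 6 were lower in B cells, and their summed level was 9.34 and 9.38 in B cells, 15.84 and 15.96 in EPM and 12.13 and 12.17 in BMDM, with Col1a1 at 5.93 in B cells, 14.10 in EPM and 10.17 in BMDM and Dcn at 6.03 in B cells, 12.44 in EPM and 9.16 in BMDM. Their part in the differences from EPM was not tested. Of 12 neutrophil markers 7 were lower in B cells, with S100a9 at 6.67 in B cells, 7.79 in EPM and 13.50 in BMDM, and their summed level was 9.72 and 9.73 in B cells, 12.06 and 12.09 in EPM and 14.02 and 14.08 in BMDM. Elane, Ngp, Camp and Lcn2, which define neutrophils and their precursors, were not well above background in B cells or EPM. In BMDM 11 of the 12 neutrophil markers were well above background in both channels.

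Of 10 T cell markers 2 were higher and 2 lower, Cd3d, Cd3g and Cd4 were not past the threshold in both contrasts, and Lck (a kinase of T cells that B-1 cells also express) was at 10.11 in B cells, 6.24 in EPM and 6.17 in BMDM. The summed level of the T cell markers was 10.93 and 11.15 in B cells, 10.72 and 10.75 in EPM and 10.42 and 10.48 in BMDM. Of 7 NK cell markers 2 were higher, Prf1 and Klrd1, both below 7 in B cells, and of 5 dendritic cell markers 2 were higher, neither by 2-fold. Of 5 platelet markers 2 were higher and Pf4, which macrophages also express, was lower, at 7.52 in B cells, 14.10 in EPM and 15.03 in BMDM. Of 4 mast cell and eosinophil markers 1 was lower. Over all genes 31.9% were higher and 30.6% lower. What these cells contributed to the differences was not tested.

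**Figure D5:**
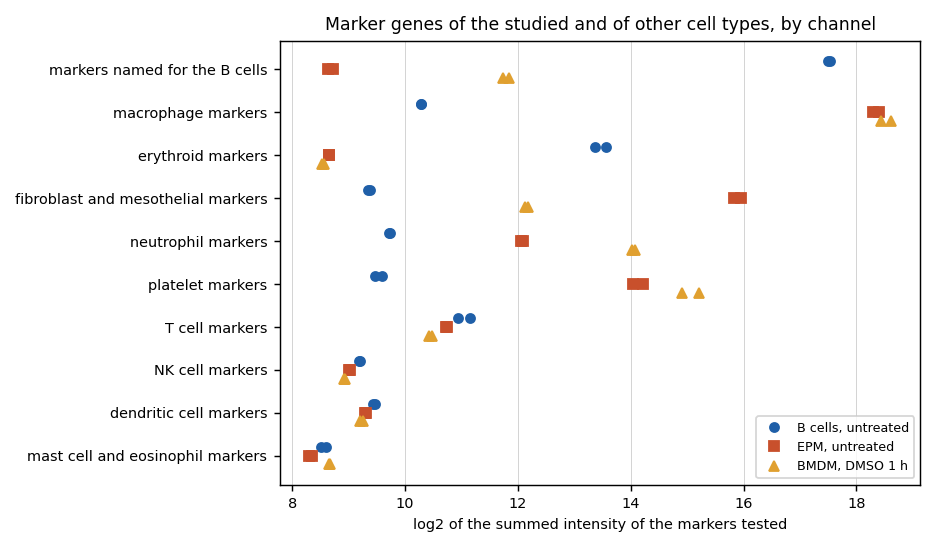
Log2 of the summed intensity of the tested members of each marker list, 1 symbol per channel (n = 2 channels per cell type; circles B cells, squares EPM, triangles BMDM). Sums depend on the number and the probes of the members, so that only symbols within a row are comparable. Erythroid markers stand at 13.37 and 13.56 in B cells against at most 8.65 in macrophages, and fibroblast and mesothelial markers are highest in EPM.

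The 12 h controls, all given DMSO, held the same cell types on other arrays of the same slides and gave the comparison again. There, 5452 genes were higher in B cells than in both macrophage types, or 31.8% of those tested, and 5195 were lower, or 30.3%. Of the 5479 genes higher in untreated B cells 4450 were also higher at 12 h, which is 81.2% of the former and 81.6% of the latter, and of the 5250 lower genes 4276 were also lower, or 81.4% and 82.3%. Of the genes with a difference of at least 2-fold, 97.4% and 96.6% were called again in the same direction, with 0 and 6 genes called the other way. In the authors' table the values of B cells at 12 h in DMSO and after 1 h of KLA are exchanged relative to the labels of the scanner files, and with the labels exchanged the shares were 89.1% and 86.7%, or 99.7% and 99.4% at 2-fold or more. The untreated B cell channels are not touched by that conflict. Pou2af1 differed at 12 h by 9.68 and 9.71 and Trem2 by -10.89 and -10.65, where the early differences were 9.74 and 9.72 for Pou2af1, and -10.99 and -10.25 for Trem2.

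B cells lay between the macrophage types in 660 genes, which were past the threshold against EPM and BMDM with opposite signs, and 30 of them differed by 2-fold or more in both contrasts. Fbxo32 (a muscle and stress ubiquitin ligase subunit) had 9.13 and 9.39 in B cells, 11.89 and 11.88 in EPM and 7.26 and 7.31 in BMDM, Crip1 (a LIM domain protein) had 12.26 and 12.14 in B cells, 14.47 and 14.65 in EPM and 10.25 and 10.22 in BMDM, and Slc39a4 (the zinc transporter ZIP4) had 10.04 and 10.15 in B cells, 8.18 and 8.20 in EPM and 13.68 and 13.83 in BMDM. In the former pair EPM were the highest and BMDM the lowest, and in Slc39a4 the order was turned, a pattern that was not called in Slc39a4 with array means taken as samples. That setting includes the 12 h controls, in which Slc39a4 differed by 4.78 from EPM and -0.89 from BMDM. Between the macrophage types themselves 1810 genes, or 10.5%, differed by 2-fold or more, against 5714 between B cells and EPM and 5372 between B cells and BMDM.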

How the data were processed

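Agilent mouse arrays with 2 colours were scanned, and the authors deposited the Feature Extraction 9.5.3.1 output of every array with its intensities and local backgrounds. The authors also deposited a table of normalized intensity, whose normalization is not given in the sources used here. On the log2 scale its columns had medians of 6.21 to 6.32 and correlated with the values used here at 0.998 to 0.999. Groups were taken from the labels.

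In R 4.3.3 with limma 3.58.1, mean spot intensities were corrected with normexp (offset 50), control spots were left out, the channels of an array were brought together by loess, and the average intensities were quantile-normalized between the 12 arrays (Aquantile). Spots of a probe were averaged without outlier spots. Since both channels of an array are replicates, the loess step narrows the spread between them, and p-values rest on that spread. A gene was represented by the probe with the highest mean, which was a choice between several probes for 8227 genes, and symbols were updated through RefSeq. A gene was tested where any condition had it well above background with both dyes, so that 1075 of the 17162 entered through conditions outside the comparison. Of the listed genes on the arrays, 13 did not pass.

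The fit held all 12 conditions (lmFit and eBayes, with 12 residual degrees of freedom). P-values were adjusted over all genes by the method of Benjamini and Hochberg, and a gene was called when the adjusted p was under 0.05 in both contrasts with the same sign. Named genes were the 12 with the largest smaller difference in each direction and the 3 with the largest smaller difference among those of opposite sign, beside genes of the lists. A few genes that enter the counts are not reported here. The members and lists were chosen with earlier results of these data known. In a simulation of this comparison with 17162 genes, 100 were given a 2-fold change and 100 a 4-fold change. The fit picked out every gene of both sets, and it also called 2 that had been left as they were. Differences between arrays or slides are not part of the spread between replicates, so this recovery does not bear on them. The simulated noise was independent between channels, without deviations shared by a dye, and far fewer genes were changed than the 62.5% called in the data. The simulation therefore checks that the fit runs as intended and gives no error rate for these data. The replicate number is the dye, and channels of the same dye deviated together on every pair of arrays (r 0.27 to 0.63 over 66 pairs), so that the dye was taken as a block in an alternative. Other alternatives concerned background correction, normalization, probe choice, filters, array means as samples, a 2-fold minimum, the authors' table and each replicate left out.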

Additional observations from a re-analysis of the deposited data

Results flagged for a closer look

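In 660 genes the difference of B cells from EPM and that from BMDM passed the threshold with opposite signs. EPM were the higher macrophage type in 303 of them and BMDM in 357, and that these differ from each other follows from how the genes were chosen. In 30 genes both differences were 2-fold or more. The 3 with the largest smaller difference were Fbxo32, Crip1 and Slc39a4, in which EPM differed from BMDM by 4.60, 4.33 and -5.57 on the log2 scale. The vehicle given to the BMDM and the slide move with these differences, and their part was not tested.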

How the results depend on the processing

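Of 82 recomputed counts 78 stayed within 1.5 times the value reported. A 2-fold minimum in each contrast lowered them to 4271 genes for both macrophage types, 5714 against EPM, 5372 against BMDM and 4053 for the 12 h controls. With one replicate left out the counts were 10054 to 10384, 12492 to 13238, 12325 to 13123 and 10041 to 10364 in the same order. With the dye as a replicate block they were 11276, 13848, 13767 and 11252, and no call on a named gene was lost. With array means taken as samples, the early and the 12 h control arrays of a cell type served as its replicates. Calls lost in this setting may therefore reflect changes over 12 h as well as the spread between arrays, and these were not separated. The setting kept 67.2% of the 10729 genes called (7235 genes in all), reversed none, and no longer called Slc39a4, Pou2f2, Ly96, Fcgr2b and Tnf. Without normalization between arrays 87.0% kept their call and 7 reversed, and the share of higher genes was 36.4% against 51.1%, in the single contrasts 39.1% against 49.7% (EPM) and 33.4% against 48.6% (BMDM), and at 12 h 36.8% against 51.2%. There, the median difference of B cells from the mean of both macrophage types changed sign in the lists of B-1 and marginal zone B cell genes, mast cell and eosinophil markers and dendritic cell markers, from 0.22, 0.07 and 0.18 to -0.048, -0.065 and -0.070, and the first was -1.08 over genes well above background in all 3 early controls. The cause was not tested. Averaging the probes of a gene kept 93.7% of the calls and reversed 57, and the authors' table kept 93.8% and reversed 2. Cell type and slide cannot be told apart under any of these settings. Levels near the floor limit what could be seen, since 1208 of the genes lower in B cells were not well above background in B cells and 477 of the higher ones in no macrophage channel.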

Other observations

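Some interferon-responsive genes of the KLA lists are given here as single genes, picked after their values were seen. Usp18, from the late list, was at 6.69 in B cells, 10.18 in EPM and 11.69 in BMDM, Bst2, from the same list, at 10.99 in B cells, 13.98 in EPM and 15.67 in BMDM and Rsad2, from the immediate/early list, at 7.35 in B cells, 10.44 in EPM and 11.29 in BMDM. In each of these 3 genes BMDM were the highest and B cells the lowest. Ly6e, also interferon-responsive, was higher in B cells, at 13.76 in B cells, 12.08 in EPM and 12.89 in BMDM. Of the 4 sex-linked genes tested, Ddx3y was higher in B cells by 1.69 and 0.84 and Eif2s3y by 0.66 and 0.35 on the log2 scale (from EPM and BMDM in this order), and without normalization between arrays 1 of the 4 was higher. All 3 cell types held Y-linked transcripts well above background. Cd300e, a myeloid receptor, was near the floor in both B cells and EPM, at 6.40 in B cells, 6.53 in EPM and 12.16 in BMDM.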
